A study of Mus musculus with 6 samples.

Results

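The genes described here serve protein folding, quality control and export in the endoplasmic reticulum (ER) and the unfolded protein response, the signalling that adjusts these functions. A list of 39 mouse genes was drawn up from 8 roles, and 38 of them had a value among the 19938 genes measured. Fkbp10 was not analysed here. A gene was represented by the probe set that names it alone, and by the one with the highest mean over all arrays where it had several.

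Gene expression was measured on 1 Affymetrix Mouse Gene ST array per sample, in 3 osteosarcoma lines and 3 osteoblast cultures. Each osteosarcoma line was grown from a bone tumour of 1 C57Bl6 mouse (OS_493H, OS_494H, OS_716H), and these mice were Osx-Cre+ with Rb fl/fl and p53 fl/fl alleles, so that Cre is driven by the promoter of Osterix (Sp7), a factor of the osteoblast lineage. Their labels give the hip for OS_493H (female, age 188), the hip for OS_494H (male, age 190) and the tibia for OS_716H (female, age 226), with no unit of age. The osteoblast cultures 1 to 3 were all KUSA4b10 cells, a stromal cell line that forms osteoblasts, labelled C57Bl6 and kept for 21 days after confluence with 50 ug/ml ascorbate. The lines have no such treatment in their labels. The effect of being a tumour line cannot be told apart from that of the culture conditions or of the KUSA4b10 line itself. The cultures are replicates of 1 cell line. Their titles also carry the tags Ex1, Ex2 and Ex3, which are not explained and may mark separate experiments. If the cultures were not started separately, p-values measure in part technical spread. In either case the spread of the cultures holds no variation between osteoblast sources.

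The labels were checked on a few genes before the comparison. Rb1, floxed in the model, was 9.26, 9.70 and 9.87 (log2 expression) in OS_493H, OS_494H and OS_716H, against 10.68, 10.66 and 10.66 in cultures 1 to 3 (log2 difference -1.05 ± 0.15 SE, limma adjusted p = 0.00427). Its probe set gives 1 value for the gene and does not single out the floxed part, and p53 was not analysed here. The Y-linked gene Eif2s3y was 4.08, 9.96 and 10.11 in the 3 lines and at most 4.14 in the cultures, so the array labelled OS_716H, a female, went against its label, and counts without it are given below. Of 9 measured osteoblast markers, 4 were lower in the lines and none was higher by the test used below (none at an unadjusted p under 0.05 either). The other 5 did not pass, and differences over this list ran from -6.16 (Ibsp) to 0.46 (Dlx5). By the same test 11.4% of all genes were lower and 13.2% higher. Ibsp, the gene of bone sialoprotein, was 6.60, 6.40 and 8.20 in the lines against 13.10, 13.67 and 12.91 in the cultures. Other cell markers also differed between the groups. Of 16 adipocyte markers 15 were lower in the lines, against 11.4% of all genes (list mean 7.60 to 8.0 per line against 10.67 to 11.33 per culture). All 11 markers of dividing cells were higher, against 13.2% of all genes (11.06 to 11.51 per line against 8.28 to 9.39 per culture). The array gives no detection call, so no marker can be called absent. In bulk RNA fewer cells of a type and less RNA per cell cannot be told apart, and the part of these cell types in the results below was not tested.

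Proteins that enter the secretory pathway fold in the ER with the help of chaperones, sugar-binding lectins and enzymes that form disulphide bonds. Chains that fail are pulled back to the cytosol and degraded, and folded cargo leaves in vesicles with the COPII coat. When unfolded chains accumulate, the sensors ATF6, IRE1 (Ern1) and PERK (Eif2ak3) raise the output of folding and degradation genes and slow translation. Bone-forming cells secrete large amounts of collagen, which needs its own chaperones and enlarged export carriers.

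Most of these genes were lower in the osteosarcoma lines. Of the 38 measured, 27 were lower, 3 were higher and 8 did not pass the test (limma on log2 values, two-sided, with p adjusted over all genes by Benjamini-Hochberg and called under 0.05). Over all genes tested, 11.4% were lower and 13.2% higher by the same rule, 24.6% in either direction. The median log2 difference, osteosarcoma minus osteoblast, was -0.67 over the 38 genes, a 1.59-fold lower level, against -0.02 over all 19938 genes. A fall of at least 2-fold with the same adjusted p was found for 14 of the 38 genes, against 2.81% of all genes, and a rise of that size for none of them, against 4.07%. In 29 genes all 3 lines lay below all 3 cultures, and in 4 all lines lay above, against 21.0% and 20.5% of all genes. Without OS_716H, 26 were lower and 2 higher. These are RNA levels, and neither sensor cleavage nor phosphorylation was measured.

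**Figure D1:**
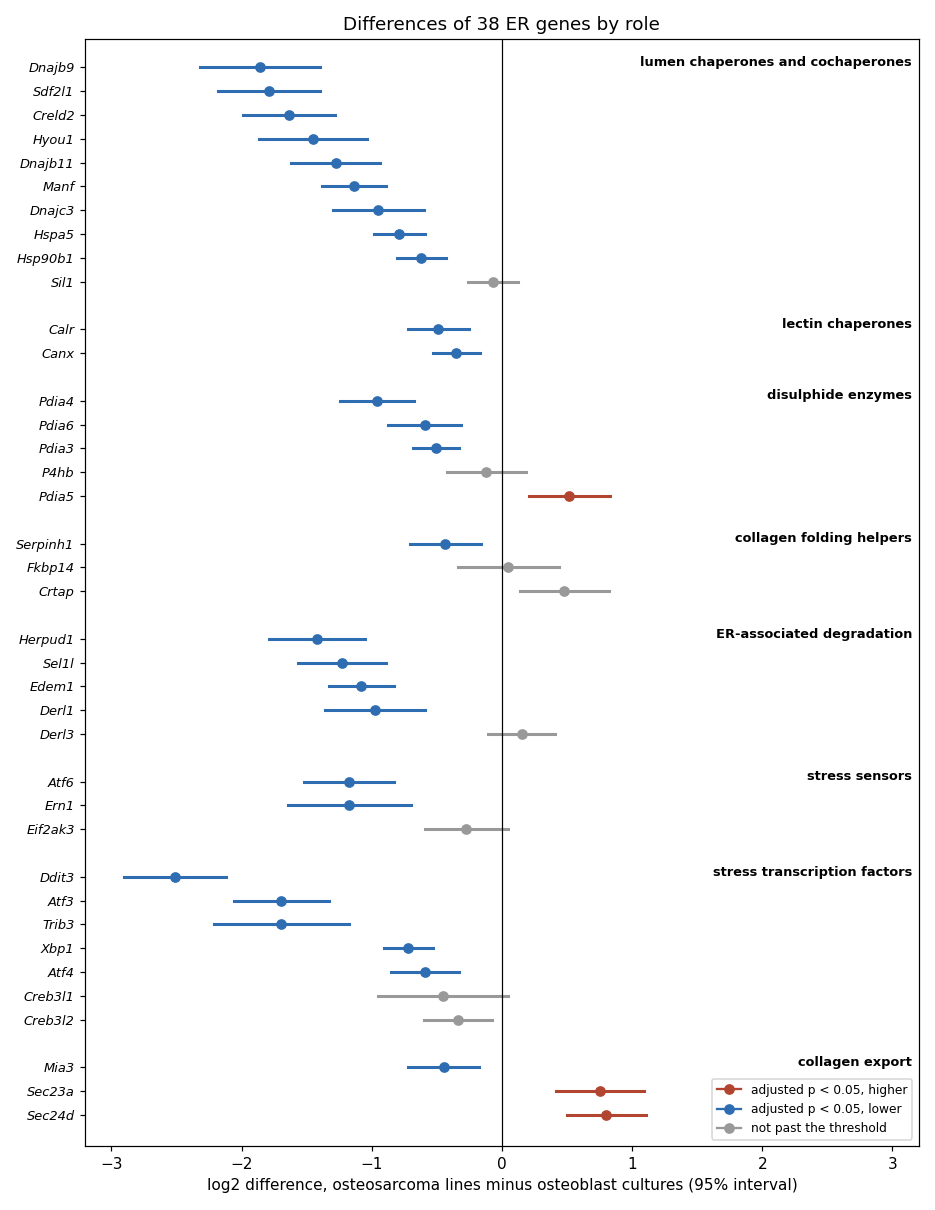
Log2 difference, osteosarcoma lines minus osteoblast cultures, of the 38 genes, grouped by role (points, limma estimates; lines, 95% intervals). The 27 genes in blue were lower and the 3 in red higher at an adjusted p under 0.05, and the 8 in grey did not pass; Ddit3 lies furthest left at -2.51 and Sec24d furthest right at 0.80.

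Chaperones of the ER lumen and their helpers fell as a group, with 9 of 10 lower, against 11.4% of all genes, and a median difference of -1.21. Hspa5 encodes BiP, the HSP70 chaperone of the ER, which also holds the stress sensors inactive. Its log2 level was 13.39, 13.30 and 13.32 in OS_493H, OS_494H and OS_716H, against 14.16, 14.01 and 14.22 in cultures 1, 2 and 3. The lines lay within 0.1 of each other and below every culture. The fall was 1.73-fold (log2 difference -0.79 ± 0.08 SE, limma adjusted p = 0.00143). Hsp90b1, the HSP90 family member of the ER, was 13.26 ± 0.03 in the lines, against 13.88 ± 0.10 in the cultures (SD, n = 3 each), a 1.54-fold fall.

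The cochaperones and regulators of BiP, apart from Sil1, had larger log2 differences than BiP itself, which was not tested. Hspa5 lay at 14.01 to 14.22 in the cultures, where the highest value on the arrays was 14.88. An effect of this brightness on the contrast was not tested. Hyou1, a large HSP70 relative that exchanges nucleotide on BiP, was 10.87, 11.09 and 11.10 in the lines, against 12.42, 12.16 and 12.83 in the cultures. All lines were below all cultures, by 2.73-fold (-1.45 ± 0.17 SE, limma adjusted p = 0.00217). Dnajb9, a J-protein that delivers clients to BiP and restrains IRE1, was 11.35, 10.77 and 10.93 in the lines, against 12.82, 12.63 and 13.17 in the cultures, a 3.62-fold fall. Its highest line, OS_493H, was still 1.28 below its lowest culture. Sdf2l1, a partner of J-proteins in the BiP cycle, was 11.27, 11.41 and 11.06 in the lines against 12.95, 12.81 and 13.36 in the cultures, a 3.46-fold fall (-1.79 ± 0.16 SE, limma adjusted p = 0.00105). Creld2 and Manf, small ER proteins induced by stress, fell 3.10- and 2.20-fold. The J-proteins Dnajb11 and Dnajc3 fell 2.43- and 1.93-fold. Sil1, another exchange factor of BiP, was the exception. It was 10.15 ± 0.10 in the lines, against 10.22 ± 0.05 in the cultures (SD, n = 3 each), a difference of -0.07 that did not pass (95% interval -0.26 to 0.12).

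Several chaperone promoters hold the ER stress element, the site read by cleaved ATF6 together with NF-Y. The elements found in genes of the list are shown. The element was searched as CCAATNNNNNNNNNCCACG on both strands in windows from 250 bases before to 50 bases after the start site, from RefSeq (GRCm38.p6). It was present in 8 of the 32 genes on the list with a window (25%), against 0.137% of all 27025 genes with a window. The list is made of genes of this response, and list and motif were chosen with earlier results known. This contrast is therefore set in part by the choice and was not tested. The same holds for the other motifs below. Of the 8 genes with the element 7 were lower in the lines, and Derl3 did not pass the test. Over the list 27 of 38 measured genes were lower, and 11.4% of all genes. Differences of the genes with the element ran from -1.63 (Creld2) to 0.15 (Derl3). The windows of Ddit3 (-2.51), Dnajb9 (-1.86) and Sdf2l1 (-1.79), with larger falls, held no exact match to it, and near matches were not searched. Each element is written 5′ to 3′ on the strand that carries it, with the fixed bases in capitals.
Hspa5, chr2:34772025-34772043, plus strand: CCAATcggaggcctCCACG
Hsp90b1, chr10:86705638-86705656, minus strand: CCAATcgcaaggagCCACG
Hsp90b1, chr10:86705533-86705551, plus strand: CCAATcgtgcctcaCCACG
Dnajc3, chr14:118937827-118937845, plus strand: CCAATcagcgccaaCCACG
Creld2, chr15:88819520-88819538, minus strand: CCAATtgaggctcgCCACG
Calr, chr8:84847075-84847093, plus strand: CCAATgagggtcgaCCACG
Canx, chr11:50325800-50325818, minus strand: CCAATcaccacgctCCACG
Pdia6, chr12:17266491-17266509, plus strand: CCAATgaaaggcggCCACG
Derl3, chr10:75893242-75893260, minus strand: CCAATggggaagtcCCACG
The spacer between the fixed ends differed in every copy. In Hspa5 the element lay at -65 to -47 from the start site and in Calr at -162 to -144. The whole window is shown for Hspa5, the gene most used as a readout of the response. It is chr2:34771840-34772139 on the plus strand, with the element in capitals.
Hspa5: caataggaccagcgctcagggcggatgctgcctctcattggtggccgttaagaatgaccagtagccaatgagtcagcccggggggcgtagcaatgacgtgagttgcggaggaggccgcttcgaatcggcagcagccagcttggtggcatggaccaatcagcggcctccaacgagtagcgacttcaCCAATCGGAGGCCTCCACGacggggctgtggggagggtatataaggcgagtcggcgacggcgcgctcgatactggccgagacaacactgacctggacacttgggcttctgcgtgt

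Both lectin chaperones, which hold newly made glycoproteins until they fold, were lower, by less than 1.5-fold. Over all genes 11.4% were lower. Calr (calreticulin) was 13.30, 13.08 and 13.28 in the lines, against 13.69, 13.61 and 13.83 in the cultures, a 1.40-fold fall. Canx (calnexin) was 13.45, 13.49 and 13.59 in the lines, against 13.87, 13.80 and 13.91 in the cultures, a 1.27-fold fall. Lines lay below cultures without overlap for both genes, as in 21.0% of all genes, but the calls depended on single arrays. The limma adjusted p of Calr was 0.0129, and 0.0525 without culture 1 and 0.0545 without culture 3. That of Canx was 0.0165, and 0.0524 without OS_493H, 0.0703 without culture 1 and 0.0741 without culture 3.

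The disulphide enzymes were divided, with 3 of 5 lower, 1 higher and 1 not past the threshold (11.4% of all genes were lower and 13.2% higher). Pdia4, an isomerase that works with BiP, was 12.74, 12.58 and 12.90 in the lines, against 13.73, 13.53 and 13.84 in the cultures, a 1.94-fold fall (-0.96 ± 0.12 SE, limma adjusted p = 0.00234). A further Pdia4 probe set fell by 1.37 on the log2 scale. Pdia6, another isomerase, fell 1.51-fold, and Pdia3, which calreticulin and calnexin recruit, fell 1.42-fold. Pdia5 went the other way, at 11.23, 10.81 and 11.04 in the lines, against 10.35, 10.56 and 10.62 in the cultures. All lines lay above all cultures, a 1.43-fold rise (limma adjusted p = 0.0293). That call was lost without OS_493H (0.073), OS_716H (0.0644), culture 1 (0.108), culture 2 (0.0678) or culture 3 (0.0628), and held only without OS_494H. P4hb encodes protein disulphide isomerase, which is also a subunit of the prolyl hydroxylase of collagen. It was 13.39, 13.07 and 13.55 in the lines, against 13.44, 13.44 and 13.50 in the cultures, and the groups overlapped. Its difference was -0.12 (95% interval -0.42 to 0.18, limma adjusted p = 0.565).

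Of 3 collagen folding helpers, 1 was lower and 2 did not pass the test (11.4% of all genes were lower and 13.2% higher). Serpinh1, the procollagen chaperone HSP47, was 11.75, 11.50 and 11.74 in the lines, against 11.92, 12.23 and 12.15 in the cultures, a 1.35-fold fall (limma adjusted p = 0.0349). The call was lost without OS_493H (0.0618), OS_494H (0.0698), culture 2 (0.104) or culture 3 (0.121). Crtap, part of the collagen prolyl hydroxylation complex, was 11.95, 11.89 and 12.21 in the lines, against 11.44, 11.80 and 11.37 in the cultures. All lines lay above all cultures, yet the difference of 0.48 did not pass (limma adjusted p = 0.053). It passed without culture 2 (0.0225), with brighter genes only (0.0426), with an intensity trend (0.0489) and with array weights (0.0191). Fkbp14, a prolyl isomerase for collagen, overlapped between the groups, with a difference of 0.05 whose sign turned under some settings. The type I collagen genes did not pass the test. Col1a1 was 13.39, 12.81 and 13.55 in the lines, against 13.20, 13.77 and 12.98 in the cultures. Its difference was -0.07 ± 0.26 SE, and that of Col1a2 was -0.03 ± 0.15 SE. This spread does not exclude a difference in either direction. Col3a1, another fibril-forming chain, was called 2.27-fold higher, and that call was lost with some arrays left out.

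Genes of ER-associated degradation, which removes chains that cannot fold, were lower in 4 of 5 cases, against 11.4% of all genes. Herpud1, a membrane adaptor of the degradation complex, was 11.47, 10.96 and 11.37 in the lines, against 12.53, 12.67 and 12.86 in the cultures, a 2.67-fold fall (-1.42 ± 0.15 SE, limma adjusted p = 0.00165). Every line was more than 1 below every culture. Sel1l, the scaffold of the ubiquitin ligase complex, and Edem1, a lectin that marks glycoproteins for removal, fell 2.35- and 2.11-fold. Derl1, a channel-like membrane protein of the same machinery, was 12.11, 11.67 and 12.23 in the lines, against 13.01, 12.82 and 13.10 in the cultures, a 1.96-fold fall. Derl3 was 7.06, 7.30 and 7.45 in the lines, against 7.14, 7.12 and 7.11 in the cultures, with all values below 7.53, the median of all values on the arrays. Its difference of 0.15 did not pass.

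Herpud1 is shown because its window holds 2 kinds of stress motif. ER stress element II, ATTGG and CCACG parted by any 1 base, was searched on both strands and found in Herpud1 and Dnajb11, 2 of 32 genes on the list, against 0.0444% of all genes. The C/EBP-ATF element, searched as TGATGNAA and read by ATF4 and its partners, was found in Herpud1, Atf3 and Trib3, 3 of 32, against 4.51% of all genes. All 4 of these genes were lower in the lines, as were 27 of the 38 measured genes of the list. Among 562 other genes on the array with the C/EBP-ATF element, 10.5% were lower and 9.79% higher, near the 11.4% and 13.2% of all genes. Of 7 other genes with ER stress element II, 4 were lower and 0 higher. The Herpud1 window is chr8:94386179-94386478 on the plus strand, with the C/EBP-ATF element (here on the opposite strand) and then ER stress element II in capitals.
Herpud1: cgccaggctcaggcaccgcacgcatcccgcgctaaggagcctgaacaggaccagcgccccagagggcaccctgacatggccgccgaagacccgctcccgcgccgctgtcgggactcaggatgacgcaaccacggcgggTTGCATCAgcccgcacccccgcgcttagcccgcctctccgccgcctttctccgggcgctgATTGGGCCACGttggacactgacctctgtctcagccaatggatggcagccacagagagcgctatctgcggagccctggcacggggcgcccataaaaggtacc

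Of the 3 stress sensors, 2 were lower, against 11.4% of all genes. Atf6, the sensor that is cleaved to an active factor, was 10.24, 10.69 and 10.40 in OS_493H, OS_494H and OS_716H and 11.61, 11.44 and 11.79 in the cultures, a 2.26-fold fall (-1.18 ± 0.14 SE, limma adjusted p = 0.00231). Ern1, the kinase and nuclease IRE1, was 9.38, 9.81 and 9.46 in the lines, against 10.80, 10.34 and 11.02 in the cultures, a 2.25-fold fall (-1.17 ± 0.20 SE, limma adjusted p = 0.00689). In both genes OS_494H was the highest line. Eif2ak3, the kinase PERK that phosphorylates the translation factor eIF2, was 9.86, 9.57 and 9.97 in the lines, against 9.90, 10.22 and 10.10 in the cultures. Those groups overlapped, and the difference of -0.27 did not pass (95% interval -0.59 to 0.05, limma adjusted p = 0.2).

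The transcription factors of the response, grouped here with the pseudokinase Trib3, included Ddit3, with the largest fall of the list. Of 7 genes measured in this group, 5 were lower, against 11.4% of all genes. In all 7 the lines lay below the cultures without overlap, against 21.0% of all genes. Ddit3 encodes CHOP, a factor of the PERK branch linked to cell death under lasting stress. Its level was 9.90, 9.43 and 9.84 in the lines, against 12.21, 12.02 and 12.46 in the cultures. The highest line was more than 2 below the lowest culture. The fall was 5.70-fold (-2.51 ± 0.16 SE, limma adjusted p = 5e-04), the largest on the list and rank 79 by size of fall among 19938 genes.

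Atf3, a stress-induced factor downstream of ATF4, was 8.09, 8.27 and 7.96 in the lines, against 9.55, 9.78 and 10.08 in the cultures, a 3.24-fold fall. Trib3, a pseudokinase induced by ATF4 and CHOP, was 9.33, 8.77 and 9.43 in the lines, against 10.85, 10.60 and 11.18 in the cultures, also a 3.24-fold fall. Atf4 itself, which is controlled largely by translation, fell by less, at 10.31, 10.09 and 10.43 in the lines, against 10.86, 10.76 and 10.97 in the cultures. The lines were all lower, by 1.50-fold (-0.59 ± 0.11 SE, limma adjusted p = 0.0099). Xbp1, whose mRNA is spliced by IRE1 to give the active factor, was 12.01, 11.92 and 12.02 in the lines, against 12.71, 12.60 and 12.79 in the cultures, a 1.65-fold fall (-0.72 ± 0.08 SE, limma adjusted p = 0.00172). The deposited value is 1 per gene and does not separate spliced from unspliced Xbp1.

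The membrane-bound relatives of ATF6 that serve collagen secretion did not pass the test. Creb3l1 (OASIS), which in mouse osteoblasts activates type I collagen, was 11.50, 11.30 and 11.57 in the lines, against 11.68, 12.39 and 11.65 in the cultures. The lines lay below the cultures, but culture 2 was 0.73 above the mean of the other two, and the difference of -0.45 had a 95% interval of -0.95 to 0.05 (limma adjusted p = 0.175). Creb3l2, which in mouse cartilage activates Sec23a, was 10.75, 10.52 and 10.79 in the lines, against 10.87, 11.10 and 11.11 in the cultures, a difference of -0.34 (limma adjusted p = 0.0668). It passed after quantile normalisation (0.049) and median centring (0.0426).

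**Figure D2:**
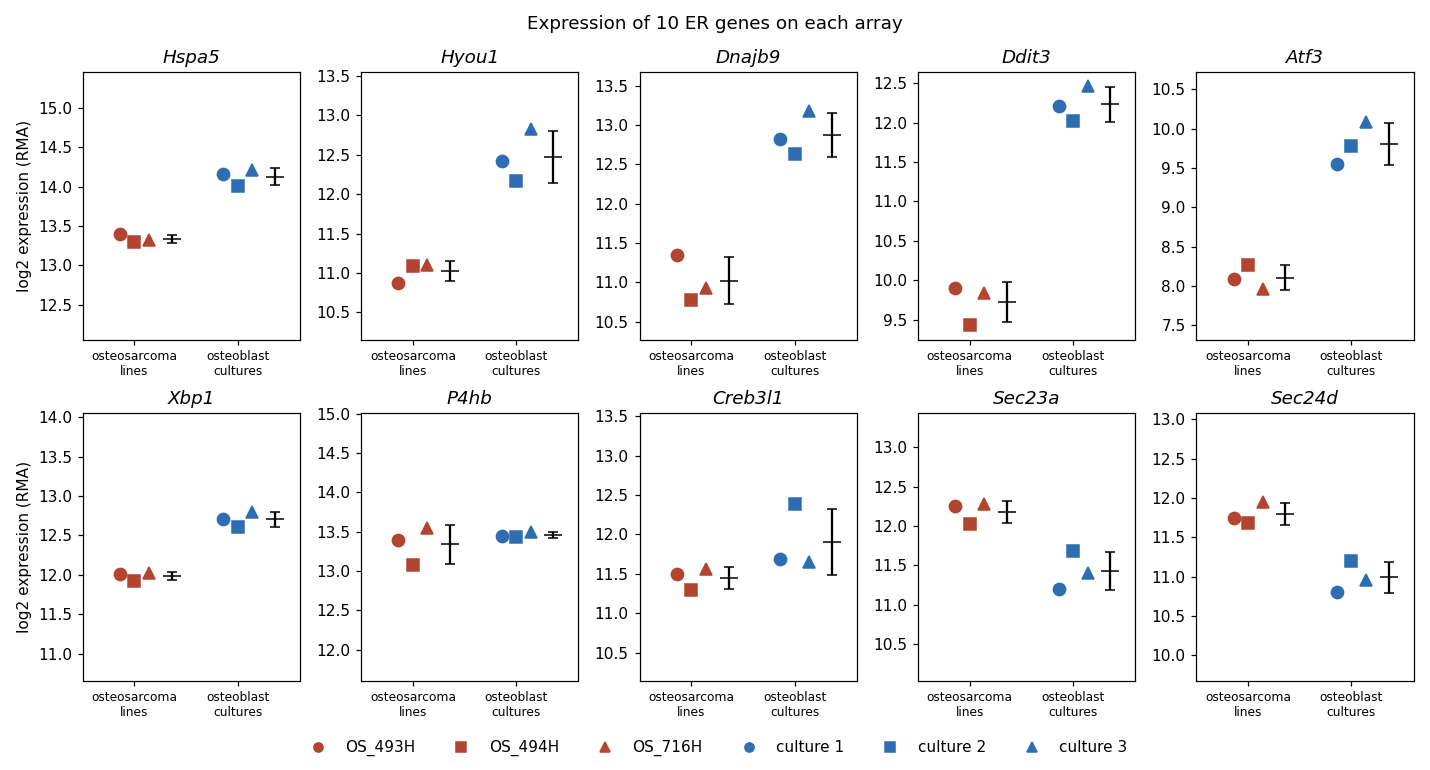
Log2 expression of 10 genes of the list on each array, osteosarcoma lines in red and osteoblast cultures in blue (black, mean and SD of 3; all panels span the same number of log2 units). Ddit3 lies at 9.43 to 9.90 in the lines and at 12.02 to 12.46 in the cultures, P4hb overlaps, and Sec23a and Sec24d are higher in the lines.

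Of 3 collagen export genes, 2 were higher and 1 lower (13.2% of all genes were higher and 11.4% lower). Sec23a and Sec24d encode the inner COPII coat, and loss of either disturbs procollagen export in bone and cartilage of humans and fish. Sec24d was 11.75, 11.68 and 11.95 in the lines, against 10.81, 11.21 and 10.96 in the cultures. All lines lay above all cultures, a 1.74-fold rise (0.80 ± 0.13 SE, limma adjusted p = 0.00552). Sec23a was 12.25, 12.02 and 12.27 in the lines, against 11.20, 11.68 and 11.40 in the cultures, a 1.69-fold rise (0.75 ± 0.14 SE, limma adjusted p = 0.01). Both calls held with any 1 array left out. Mia3 encodes TANGO1, the ER exit receptor that loads procollagen. It was 10.75, 10.53 and 10.56 in the lines, against 11.03, 10.90 and 11.25 in the cultures, a 1.36-fold fall (limma adjusted p = 0.0317). That call was lost without OS_494H (0.0695), OS_716H (0.0742), culture 1 (0.0957) or culture 3 (0.0965).

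Sec24d and Sec23a are shown together because no other listed gene with a window held an exact match to TGACGTGG. The unfolded protein response element, which is bound by spliced XBP1 and by ATF6 relatives, was searched as these letters only. The Hspa5 window shown above holds TGACGTGA, which differs in the last base and was not counted. The searched motif was found in Sec24d and Sec23a, 2 of 32 genes, against 0.714% of all genes. Among 141 other genes on the array with this motif, 12.8% were lower and 14.2% higher in the lines, close to the 11.4% and 13.2% of all genes. The Sec24d window is chr3:123267246-123267545 on the plus strand and the Sec23a window is chr12:59011968-59012267 on the minus strand, both 5′ to 3′ in the direction of the gene with the motif in capitals.
Sec24d: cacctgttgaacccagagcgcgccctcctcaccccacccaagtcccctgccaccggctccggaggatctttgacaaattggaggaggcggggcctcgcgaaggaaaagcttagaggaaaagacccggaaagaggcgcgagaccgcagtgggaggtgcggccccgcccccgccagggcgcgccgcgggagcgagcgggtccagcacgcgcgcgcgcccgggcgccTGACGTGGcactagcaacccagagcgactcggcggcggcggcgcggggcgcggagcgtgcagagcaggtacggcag
Sec23a: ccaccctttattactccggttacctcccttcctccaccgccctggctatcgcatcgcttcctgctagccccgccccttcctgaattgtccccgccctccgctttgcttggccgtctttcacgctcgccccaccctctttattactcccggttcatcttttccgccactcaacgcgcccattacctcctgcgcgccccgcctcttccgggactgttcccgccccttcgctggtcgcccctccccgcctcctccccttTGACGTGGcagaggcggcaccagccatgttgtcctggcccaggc
A match says only that these letters are in the window, and binding was not measured. Ddit3, with the largest fall, had no exact match to any of the 4 motifs in its window. On the opposite strand it holds a near match to the ER stress element, with a base changed in the second fixed part. Only exact matches were counted, and bases outside the window were not searched. Creb3l1, Manf, Atf6, Sil1, Derl1, Hyou1 and Fkbp10 have no entry in the promoter table.

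**Figure D3:**
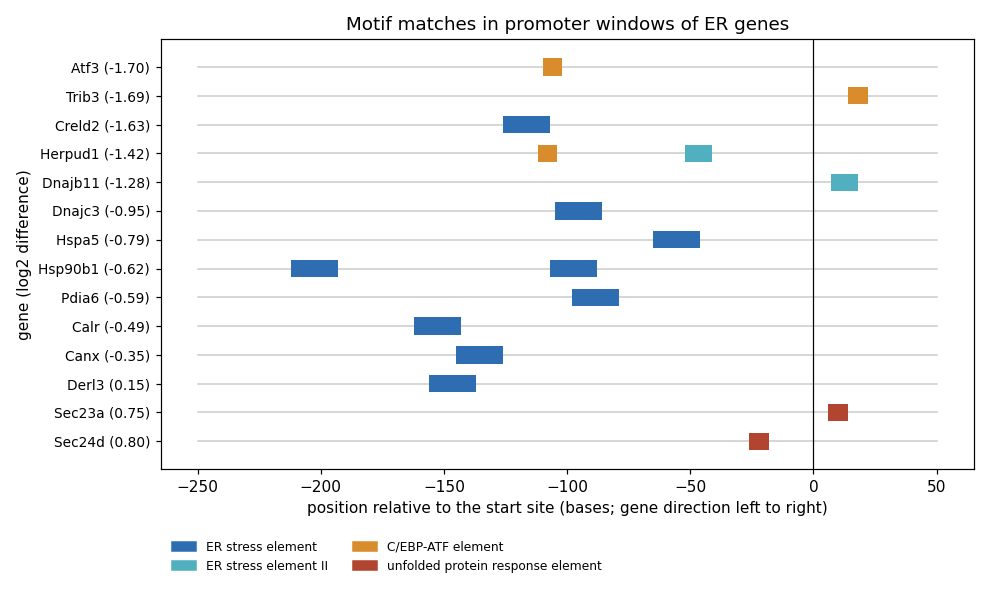
Positions of 4 motifs in promoter windows of the 14 genes of the list with at least 1 match, from 250 bases before to 50 bases after the start site (vertical line), with each gene's log2 difference in parentheses, ordered from Atf3 at -1.70 to Sec24d at 0.80. The 9 copies of the ER stress element lie between -212 and -47, 8 of them in genes that were lower in the lines. TGACGTGG, the form of the unfolded protein response element that was searched, lies in Sec23a and Sec24d.

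Other genes of the same pathways were examined as lists. Of 14 other degradation genes 8 were lower and 1 higher, against 11.4% and 13.2% of all genes (median difference -0.47). Selenos and Syvn1, a partner and the ligase of the Sel1l complex, fell 2.20- and 2.19-fold, the lectin Os9 fell 2.06-fold, and Vcp, the ATPase that extracts substrates, rose 1.37-fold. The call of Vcp was lost without OS_493H (0.0548) or any 1 culture (0.065 to 0.0897). Without OS_493H or culture 1, 4 were lower, without culture 3, 5 were lower, and none was higher without OS_493H or any 1 culture. Of 16 other genes listed as targets of the PERK branch 8 were lower and none higher by limma (none at an unadjusted p under 0.05 either), with a median of -0.65. The same shares of all genes, 11.4% and 13.2%, apply here. PERK activity was not measured, and its part in these differences was not tested. Nupr1, a stress-induced chromatin protein, was 10.48, 9.65 and 10.61 in the lines, against 12.63, 12.38 and 12.71 in the cultures, a 5.04-fold fall. Ppp1r15a, the phosphatase subunit that reverses PERK signalling, and Chac1, which degrades glutathione, fell 3.68- and 2.59-fold. Without OS_494H, 1 gene of this list was higher.

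The shares called in the remaining lists are to be read against 11.4% of all genes lower and 13.2% higher. Of 24 other folding enzymes 5 were lower and 2 higher (median 0.01). Ero1a and Ero1b, the oxidases that recharge the isomerases, fell 2.60- and 2.25-fold, and Fkbp11, a prolyl isomerase, fell 1.89-fold. Prdx4, a peroxiredoxin that also oxidises the isomerases, was 10.80, 10.48 and 10.81 in the lines, against 9.29, 9.69 and 9.40 in the cultures, a 2.36-fold rise (1.24 ± 0.14 SE, limma adjusted p = 0.0018). Tmx1, a membrane thioredoxin, rose 1.28-fold. Higher calls numbered 7 without OS_494H and 1 without any 1 culture. The call of Tmx1 was lost without any 1 culture (0.0675 to 0.104), and the call of Ero1b was lost without OS_493H (0.0573) or culture 1 (0.0506). Of 21 other COPII and cargo genes 3 were lower (Sec24a, Kdelr1 and Tmed10) and 3 higher (Sec24b, Sec31a and Mia2), close to the shares of all genes. Sec24a, a paralogue of Sec24d, fell 1.48-fold while Sec24b rose 1.30-fold. Higher calls fell to 1 without OS_493H, OS_716H, culture 1 or culture 3, and lower calls to 1 without OS_493H or any 1 culture. The calls of Sec24a and Sec24b held with any 1 array left out. Those of Sec31a, Mia2 and Tmed10 were each lost without any 1 array other than OS_494H. That of Kdelr1 was lost without OS_493H or any 1 culture. All values of Mia2 lay below 7.53, the median of all values on the arrays.

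Of 18 translocon and N-glycosylation genes, which bring chains into the ER and attach sugars, 3 were lower (Spcs2, Sec63 and Rpn1, by 1.74-, 1.54- and 1.35-fold) and 3 higher (Ssr1, Ssr2 and Sec61b, by 1.38-, 1.35- and 1.28-fold), against 11.4% and 13.2% of all genes. None was higher without culture 1 and 1 was without culture 3. The call of Ssr1 was lost without any 1 culture (0.0587 to 0.0764), that of Ssr2 without culture 1 (0.0589), that of Sec61b without culture 1 (0.0704) or culture 3 (0.052) and that of Rpn1 without culture 3 (0.0537). Of 8 genes that process sensors or are related to them, Nfe2l2 fell 1.41-fold and none rose by limma (1 at an unadjusted p under 0.05), a count near the share of all genes. The Nfe2l2 call was lost without culture 1 (0.0541), and without OS_494H 2 genes were lower and 1 higher. Of 11 fibril-forming collagen chains Col3a1 rose 2.27-fold and Col5a3 and Col11a2 fell 1.72- and 1.33-fold. The Col3a1 call was lost without OS_493H (0.124), OS_716H (0.103), culture 1 (0.146) or culture 3 (0.144), and the Col11a2 call without any 1 array other than OS_716H (up to 0.104). Without culture 2, 2 collagen chains were higher.

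**Figure D4:**
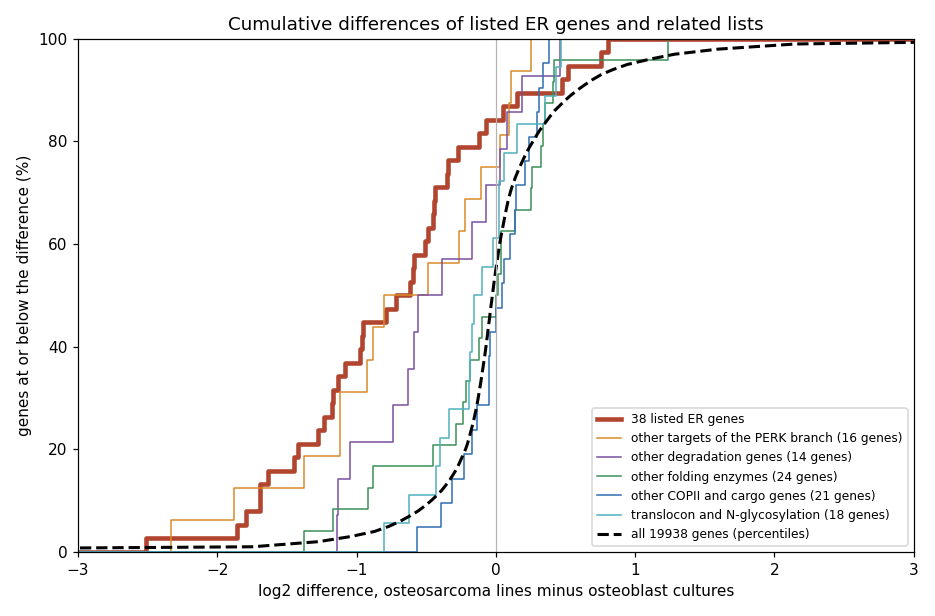
Cumulative share of genes against the log2 difference, osteosarcoma lines minus osteoblast cultures, for the 38 genes, 5 lists of other genes of the pathway and all 19938 genes (dashed). The 38 genes and the PERK list lie left of all genes, with medians of -0.67 and -0.65 against -0.02, and the COPII list has a median of 0.04.

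Within the cultures the genes that were lower in the lines varied together. Of the 27 such genes, 26 were highest in culture 3 and 24 lowest in culture 2, against 29.2% and 38.4% of all genes, and 24 ran in the order culture 3, culture 1, culture 2, against 18.6% of all genes. For Hyou1 the 3 cultures spanned 12.16 to 12.83 and for Ern1 10.34 to 11.02. The 11 other genes of the list did not share this order. It was found in 1 of them, and culture 2 was the highest culture in 6 of the 11, as for Creb3l1, Sec23a, Sec24d and Crtap. Markers of dividing cells had a list mean of 8.42, 9.39 and 8.28 in cultures 1, 2 and 3, and adipocyte markers 11.33, 10.67 and 10.88. Their part in the order was not tested, and 3 cultures of 1 line allow no test.

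Among the lines OS_494H was lowest in 27 of the 38 genes, against 29.8% of all genes, and OS_716H highest in 23, against 38.4%. OS_494H stood lowest against the other lines for Trib3, by 0.61, and for Derl1, by 0.51. It was the highest line for Sdf2l1, Edem1, Atf3, Atf6 and Ern1. OS_493H stood apart most for Dnajb9, 0.50 above the mean of the other lines, and OS_716H most for Trib3, 0.38 above. The median SD of the 38 genes was 0.15 over the lines and 0.17 over the cultures, and the lines had the larger SD in 19 of 38, against 65.8% of all genes. With 1 array per line, differences between lines could not be tested.

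**Figure D5:**
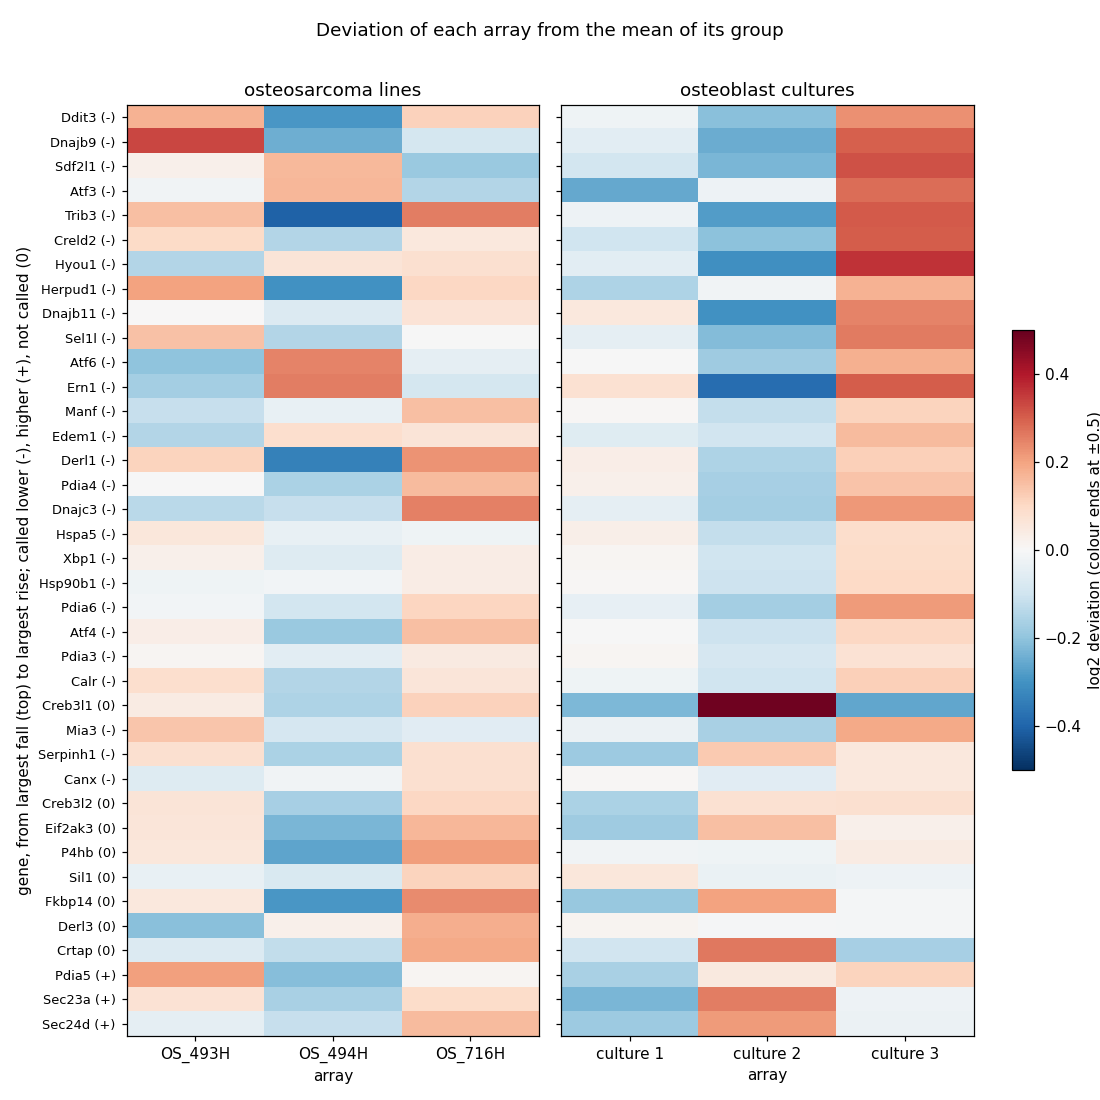
Deviation of each array from the mean of its group (log2, colour), for osteosarcoma lines (left) and osteoblast cultures (right), with the 38 genes ordered from the largest fall to the largest rise. In 26 of the 27 genes marked as lower, culture 3 is the highest culture, while culture 2 stands out for Creb3l1, 0.73 above the mean of the other cultures.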

How the data were processed

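Total RNA of 6 cell samples was hybridised to 1-colour arrays, 1 array per sample. The deposited log2 values were made by RMA, and mm9 is the build named, both per the submitters' processing notes. The program and its version were not given in the sources used here. This method equalises the arrays and compresses large differences. Values ranged from 3.04 to 14.88, with array medians from 7.45 to 7.58. Of 35556 probe sets, 21789 named 1 gene in the platform annotation, 1621 named several and 12146 were not listed. The probe sets with 1 symbol gave 19938 genes, of which 999 had several probe sets.

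The comparison used limma 3.58.1 under R 4.3.3, with lmFit and then eBayes, over all 19938 genes without filter or covariate. The precision is limited by 3 arrays per group. The genes of the list, the further lists and motifs were chosen with earlier results of these data known. The genes named are all those of the list, and from each further list up to 3 calls in each direction. Col1a1, Col1a2 and Dlx5 are named outside that rule, after their values were seen. The script was checked with simulated arrays of known change. Promoter windows were matched by symbol or gene identifier (32 of 39 genes, RefSeq, GRCm38.p6). No scan dates were used, so batches were not tested.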

Additional observations from a re-analysis of the deposited data

How the results depend on the processing

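No paired analysis was possible because only the osteoblast cultures carry replicate numbers. On leaving out 1 array at a time, 23 to 26 of the listed genes were lower and 2 to 3 higher, with a median difference of -0.72 to -0.63. Of the 27 lower calls, 23 held under each of 16 settings other than the threshold. The exceptions were Calr, Canx, Serpinh1 and Mia3. Of the higher calls Sec23a and Sec24d held and Pdia5 did not. With an adjusted p under 0.01, 1 listed gene was higher, and with at least a 2-fold change 14 were lower and 0 higher. These follow from the thresholds, and other shifts have a cause that was not tested. The difference of Fkbp14 turned to -0.023 after quantile normalisation, -0.0009 with cultures 1 and 3 as 1 sample, -0.069 without OS_716H and -0.046 without culture 1, and ran from -0.069 to 0.19 on leaving out 1 array. That of P4hb turned to 0.012 without OS_494H and ran from -0.23 to 0.012.

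The further lists moved more, in counts of 0 to 8. On leaving out 1 array, other folding enzymes had 1 to 7 higher and 4 to 6 lower, degradation genes 0 to 1 higher and 4 to 8 lower, PERK genes 0 to 1 higher and 6 to 8 lower, COPII genes 1 to 3 in each direction, translocon genes 0 to 3 higher and 2 to 4 lower, sensor-related genes 0 to 1 higher and 0 to 2 lower, and collagen chains 0 to 2 higher and 1 to 2 lower. After quantile normalisation 5 translocon and 3 sensor-related genes were lower and 0 collagen chains higher. Median centring left 1 folding enzyme and 1 COPII gene higher and 2 sensor-related genes lower. With brighter genes only, 2 sensor-related genes were lower. With an intensity trend 5 translocon genes were lower and 1 sensor-related gene higher. Robust moderation left 0 collagen chains higher. Estimating the spread separately in each group gave 1 sensor-related gene higher and 0 collagen chains higher and 1 lower. Array weights gave 5 translocon genes lower, 1 sensor-related gene higher and 2 lower, and 2 collagen chains higher. With all probe sets tested, 1 COPII gene and 0 collagen chains were higher. With cultures 1 and 3 as 1 sample, 1 folding enzyme was higher, 0 degradation genes were higher and 5 lower, 1 COPII gene was higher and 1 lower, 1 translocon gene was higher, and 0 collagen chains were higher and 1 lower. At an adjusted p under 0.01 these were 1 and 3 for folding enzymes (higher and lower), 0 and 4 for degradation genes, 1 and 1 for COPII genes, 0 higher translocon genes, 0 lower sensor-related genes, and 0 and 1 for collagen chains. At 2-fold they were 1 and 2 for folding enzymes, 0 and 3 for degradation genes, 5 lower PERK genes, 0 for COPII genes, translocon genes and lower sensor-related genes, and 0 lower collagen chains.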

Other observations

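Genes outside the list that hold the ER stress element in the same promoter window were also examined. Of 13 such genes on the array 4 were lower in the lines and none higher by limma, against 11.4% and 13.2% of all genes. The 4 were Alg12, a mannosyltransferase of N-glycan assembly (log2 difference -1.25), the oxidase Ero1b (-1.17), the ubiquitin ligase Syvn1 (-1.13) and Acacb, an acetyl-CoA carboxylase (-0.45). Ero1b and Syvn1 were already counted in the further lists above. The median difference of the 13 genes was -0.19. ER stress element II was held by 7 further genes on the array, of which 4 were lower and none higher, with a median of -0.38. The C/EBP-ATF element was held by 562 further genes, of which 59 were lower and 55 higher, near the shares of all genes. These counts were not tested, and Alg12 and Acacb were named after their values were seen.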
